A study of Arabidopsis thaliana with 24 samples.

Results

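A set of 10 genes of the evening part of the Arabidopsis thaliana circadian clock and its outputs was followed across all 24 libraries of a study of the chromatin remodeller INO80 in warmth. They were chosen by name and locus with earlier results of these data known, so counts of members called may not be independent of the choice. They are 10 of the 23842 genes listed in either of the 2 deposited tables. The members are ELF3 (AT2G25930), ELF4 (AT2G40080), LUX (AT3G46640), BOA (AT5G59570), GI (AT1G22770), ZTL (AT5G57360), FKF1 (AT1G68050), CDF1 (AT5G62430), COR27 (AT5G42900) and COR28 (AT4G33980). RNA of whole seedlings of the mutant ino80-5 (written ino80) and of wild-type Columbia (Col), both in the Col background, was sequenced. All seedlings were first raised in short days at 21 °C and were 7 days old when the treatment began. They were then kept at 27 °C, or at 21 °C, for 1 h or for 12 h, which gave 8 groups of 3 libraries: ino80 at 27 °C, ino80 at 21 °C, Col at 27 °C and Col at 21 °C at each time. The labels name 1 mutant allele, and they give neither the hour of the day of collection nor the origin of the replicates, so a p-value measures the spread between these libraries, which may be technical.

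The evening complex of ELF3, ELF4 and LUX, or LUX's close relative BOA, binds DNA through LUX and BOA and represses its targets from dusk into the night. Its activity is known to weaken in warmth, and the growth regulator PIF4 is among its targets. GI is a large dusk-phased protein that stabilises the blue light receptor and F-box protein ZTL and acts with the related F-box protein FKF1. ZTL marks clock proteins such as TOC1 for degradation, and FKF1 with GI marks CDF1, a DOF factor that represses the flowering gene CO. COR27 and COR28 are small proteins regulated by cold and blue light that repress clock genes.

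The 250 bases before the annotated start of 8 of the genes (ELF3, LUX, BOA, GI, ZTL, FKF1, CDF1 and COR28) were searched for motifs on both strands, because 9 of the 10 genes rose together in both genotypes after 12 h of warmth. The evening element, AAAATATCT, is the site at which clock MYB factors act on evening genes. It was present before LUX, BOA and FKF1, which is 3 of the 8 starts searched, against 2.36% of 27443 gene starts. The genes were chosen by name as evening genes, so this share is not independent of the choice. A link between the element and the rise in warmth was not tested. The CCA1 site AAAAATCT was present before COR28, against 6.69% of all starts, and the LUX site GATACG or GATTCG before ELF3, against 12.1%. The G-box CACGTG stood before LUX and BOA, against 6.49%, and the heat shock element GAANNTTC before ELF3, against 9.55%. The G-box is bound by bHLH factors such as the PIFs and the heat shock element by heat shock factors, and none of the 5 motifs was found before GI, ZTL or CDF1. A match is a description of letters, not of binding, and windows without a match say nothing of a factor. Shown here are the 3 starts with an evening element and, for comparison, that of COR28, which has none and rose at 12 h as well. Sequences are 5′ to 3′ along the gene from the RefSeq annotation of TAIR10.1, in which none of these windows touched an exon of another gene. Capitals mark evening elements and the CCA1 site in COR28.
LUX (chr3:17182792-17183041, plus strand): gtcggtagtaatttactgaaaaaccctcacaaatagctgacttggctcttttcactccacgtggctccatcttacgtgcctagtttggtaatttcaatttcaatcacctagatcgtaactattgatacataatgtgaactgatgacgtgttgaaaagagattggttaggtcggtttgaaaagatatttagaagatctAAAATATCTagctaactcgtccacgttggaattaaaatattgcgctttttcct
BOA (chr5:24003638-24003887, plus strand): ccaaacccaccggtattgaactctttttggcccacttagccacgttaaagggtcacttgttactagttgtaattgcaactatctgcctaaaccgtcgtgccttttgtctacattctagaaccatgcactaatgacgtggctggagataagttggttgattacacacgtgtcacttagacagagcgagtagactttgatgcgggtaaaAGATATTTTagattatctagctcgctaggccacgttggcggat
FKF1 (chr1:25508389-25508638, plus strand): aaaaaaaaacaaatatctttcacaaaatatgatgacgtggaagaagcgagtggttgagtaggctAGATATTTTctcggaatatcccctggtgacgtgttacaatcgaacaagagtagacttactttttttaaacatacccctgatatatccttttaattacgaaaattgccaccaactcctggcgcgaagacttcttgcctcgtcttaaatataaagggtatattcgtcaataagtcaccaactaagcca
COR28 (chr4:16285230-16285479, minus strand): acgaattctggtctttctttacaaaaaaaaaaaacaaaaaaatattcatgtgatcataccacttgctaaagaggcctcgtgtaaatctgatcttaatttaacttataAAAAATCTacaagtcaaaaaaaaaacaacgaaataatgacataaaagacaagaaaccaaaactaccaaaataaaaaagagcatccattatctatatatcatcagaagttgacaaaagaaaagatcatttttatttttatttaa

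**Figure D1:**
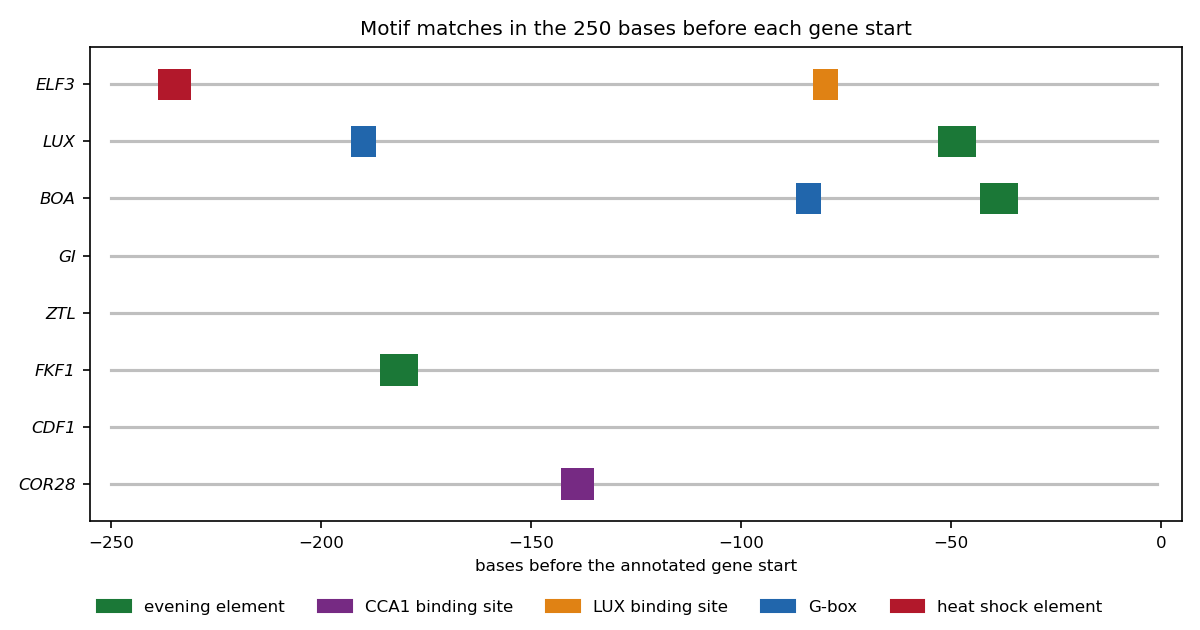
Motif matches in the 250 bases before the annotated start of 8 genes. The x axis is the distance from the gene start in bases, each line is 1 gene, and a bar spans 1 match on either strand. Evening elements lie 45 to 53 bases before the start in LUX, 35 to 43 in BOA and 178 to 186 in FKF1.

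Depth is not stated in the tables, and it was estimated from the steps between the lowest values. In TPM, a level per transcript length scaled to 1 total for every library, 1 fragment in a transcript of 1 kb was worth 0.0672 to 0.131 TPM at 1 h and 0.108 to 0.128 TPM at 12 h. INO80, the mutated gene, was lower in ino80 in all 4 genotype comparisons (-0.45, -0.44, -0.59 and -0.34 on the log2 scale at 27 °C and 21 °C at 1 h and at 27 °C and 21 °C at 12 h). It had 10.9 to 11.6 TPM in ino80 at 27 °C against 14.4 to 16.7 TPM in Col at 27 °C, and 12.6 to 14.8 TPM in ino80 at 21 °C against 17.0 to 20.3 TPM in Col at 21 °C, all at 1 h. At 12 h it had 22.8 to 32.1 TPM in ino80 at 27 °C against 37.0 to 47.9 TPM in Col at 27 °C, and 16.4 to 17.5 TPM in ino80 at 21 °C against 20.0 to 22.5 TPM in Col at 21 °C. The last of these calls was lost without any 1 of the 6 libraries compared or without Col at 27 °C replicate 2 (-0.39 to -0.31, limma adjusted p 0.0513 to 0.126), with a pseudocount of 5 (-0.28, 0.0591) and with no filter (-0.34, 0.0658). The place of the lesion is not given in the sources used here, so these values do not show which part of the gene was transcribed. The summed level of 4 genes of green tissue (RBCS1A, RBCS3B, CAB1 and RCA) was 67589 to 80448 TPM at 1 h. It was 36558 to 41172 TPM in ino80 at 27 °C, 61866 to 68554 TPM in ino80 at 21 °C, 45159 to 50720.1 TPM in Col at 27 °C and 64314 to 72057 TPM in Col at 21 °C at 12 h. In every comparison below, fewer cells with a transcript and less of it per cell cannot be told apart.

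Levels of the members separated them by time. Because TPM is per transcript length, genes can be set side by side within a table, whereas the tables of 1 h and 12 h were scaled apart and no test was made across them. In Col at 21 °C the order of mean levels at 1 h was GI 109 TPM, CDF1 62.5 TPM, ZTL 59.4 TPM, ELF3 9.93 TPM, LUX 3.80 TPM and ELF4 1.74 TPM. FKF1, BOA, COR27 and COR28 were listed at means of 0.541, 0.464, 0.345 and 0.208 TPM there. At 12 h in the same genotype and temperature the order was ELF4 68.5 TPM, ELF3 65.1 TPM, ZTL 33.2 TPM, COR27 31.9 TPM, BOA (library values below), FKF1 9.25 TPM, COR28 8.13 TPM and LUX 5.97 TPM, with CDF1 at 0.775 TPM and GI at 0.351 TPM. GI and CDF1 thus stood at the head of the order at 1 h and at its foot at 12 h. The libraries of CDF1 and ZTL overlapped at 1 h, as did those of FKF1, BOA and COR27 and those of COR27 and COR28, and those of ELF4 and ELF3, of ZTL and COR27 and of CDF1 and GI overlapped at 12 h, so the order of these neighbours is not fixed.

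**Figure D2:**
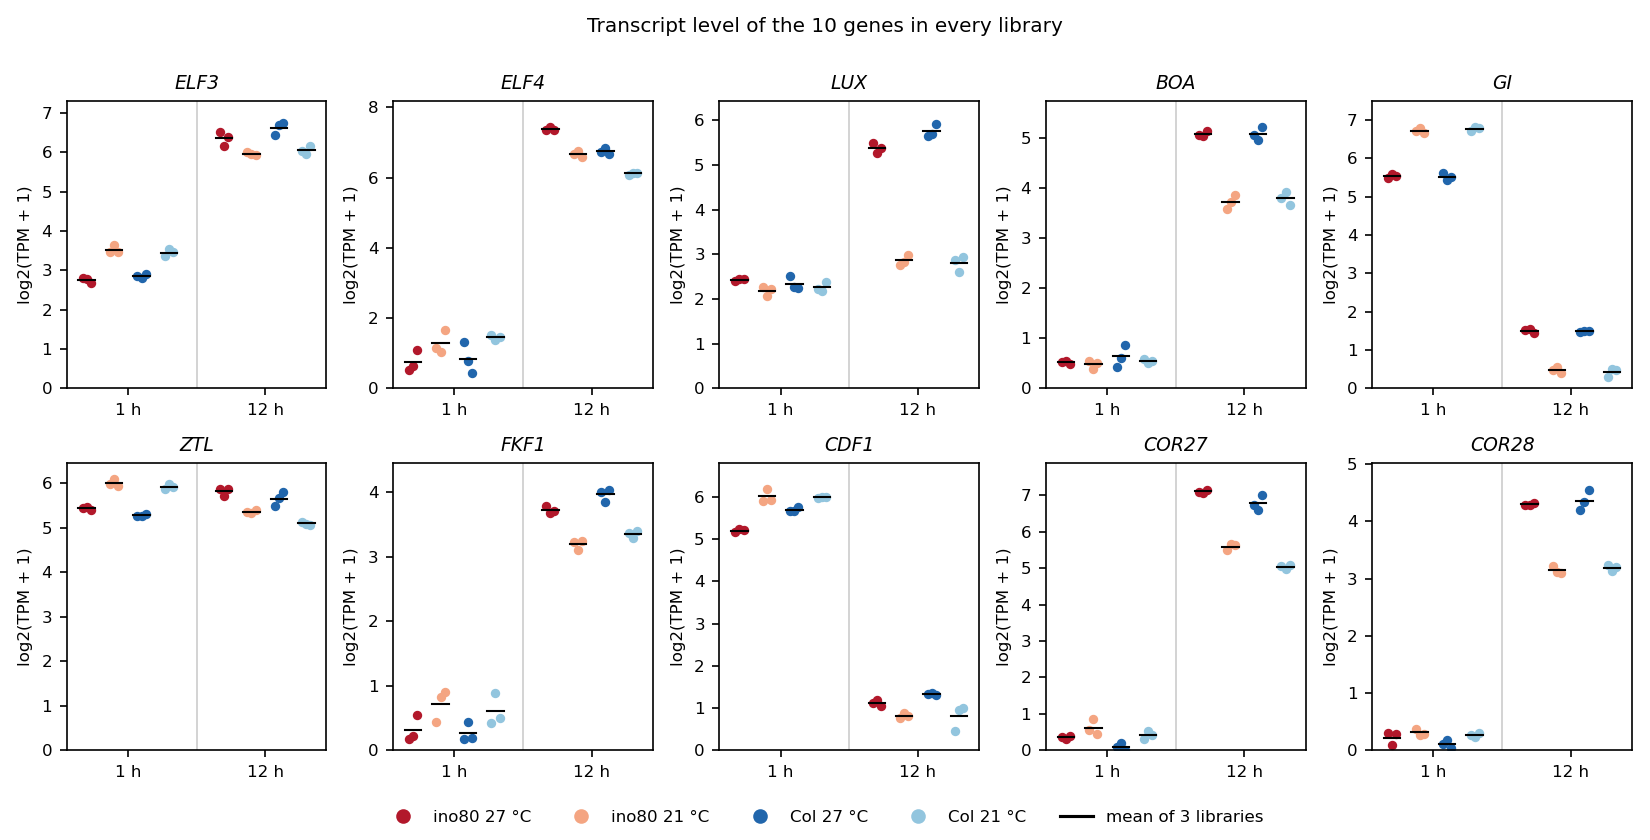
Level of each gene in every library. The y axis is log2(TPM + 1), points are libraries and black lines the means of 3 libraries, with ino80 at 27 °C, ino80 at 21 °C, Col at 27 °C and Col at 21 °C from left to right at 1 h and at 12 h. GI and CDF1 are high at 1 h and low at 12 h, and LUX at 12 h lies between 37.4 and 59.7 TPM at 27 °C and between 5.04 and 6.92 TPM at 21 °C.

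After 1 h at 27 °C, GI, ZTL, CDF1 and ELF3 were lower than at 21 °C in both genotypes. Each change is a log2 fold change ± SE of log2(TPM + 1) from limma with 3 libraries per group, which understates changes of low genes, and adjusted p-values are two-sided and corrected over all genes tested. Of the 10 genes 6 could be tested at 1 h, since BOA, FKF1, COR27 and COR28 stayed under the filter of 1 TPM in 3 of 12 libraries. In ino80, 0 of the 6 rose and 4 fell, and in Col 0 rose and 5 fell. Over all 19190 genes tested, 32.0% were called in ino80, 15.2% higher and 16.8% lower, and 34.2% in Col, 15.7% higher and 18.5% lower. The median change of the 6 genes was -0.67 in ino80 and -0.60 in Col, where that of all genes was 0.00 in both.

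GI had the greatest fall of the tested members in both genotypes. It measured 43.5, 47.1 and 45.2 TPM in ino80 at 27 °C, against 104, 110.3 and 99.98 TPM in ino80 at 21 °C. In Col it measured 47.7, 42.5 and 45.0 TPM at 27 °C, against 104, 111 and 110.5 TPM at 21 °C. Every warm library lay under every cool one, and the libraries of ino80 and Col at 1 temperature overlapped. The change was -1.19 ± 0.06 in ino80 (limma adjusted p = 2.6e-10) and -1.25 ± 0.06 in Col (limma adjusted p = 1.4e-10). The interaction, the change in ino80 less that in Col, was 0.06 with a 95% interval of -0.11 to 0.23.

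ZTL, the F-box partner of GI, measured 42.6, 42.8 and 41.1 TPM in ino80 at 27 °C, against 62.3, 66.8 and 60.2 TPM in ino80 at 21 °C. Its levels in Col were 37.3, 37.4 and 38.8 TPM at 27 °C, against 57.2, 62.0 and 59.0 TPM at 21 °C. The warm and cool libraries did not overlap in either genotype. ZTL fell by 0.57 ± 0.05 on the log2 scale in ino80 (limma adjusted p = 5.6e-07) and by 0.64 ± 0.05 in Col (limma adjusted p = 1.5e-07).

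CDF1, the target of FKF1 and GI, was the member whose fall differed between the genotypes. It measured 35.1, 36.7 and 36.0 TPM in ino80 at 27 °C, against 59.3, 71.8 and 60.3 TPM in ino80 at 21 °C. In Col it measured 49.5, 49.9 and 53.0 TPM at 27 °C, against 61.8, 62.6 and 63.1 TPM at 21 °C. The 3 warm ino80 libraries were the lowest of the 12, the 3 warm Col libraries lay apart above them, and the cool libraries of the genotypes overlapped. The change was -0.81 ± 0.06 in ino80 (limma adjusted p = 1e-07) and -0.29 ± 0.06 in Col (limma adjusted p = 0.0022). The interaction was -0.51 ± 0.09, with a 95% interval of -0.71 to -0.32 and a limma adjusted p of 0.0085. It was called under all 20 alternatives, with values of -0.56 to -0.42 and adjusted p of 0.0062 to 0.033. Among all genes the interaction at 1 h was called for 1.88%, 1.09% higher and 0.792% lower. CDF1 was the 1 member called of the 6 tested, and the interactions of ELF3, ELF4, LUX, GI and ZTL ran from -0.18 to 0.16.

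Among the evening complex genes, ELF3 fell in both genotypes. It measured 5.999, 5.82 and 5.43 TPM in ino80 at 27 °C, against 9.96, 11.5 and 10.1 TPM in ino80 at 21 °C. In Col it measured 6.19, 5.98 and 6.49 TPM at 27 °C, against 9.21, 10.6 and 9.95 TPM at 21 °C. Warm and cool libraries lay apart in both. The change was -0.77 ± 0.08 in ino80 (limma adjusted p = 3.5e-06) and -0.60 ± 0.08 in Col (limma adjusted p = 4.6e-05). LUX, the DNA-binding subunit, measured 4.30, 4.41 and 4.42 TPM in ino80 at 27 °C against 3.84, 3.21 and 3.64 TPM in ino80 at 21 °C, and its change of 0.24 ± 0.11 did not pass (limma adjusted p = 0.098). In Col it ranged from 3.71 to 4.74 TPM at 27 °C and from 3.53 to 4.17 TPM at 21 °C, a change of 0.08 ± 0.11 (limma adjusted p = 0.6). LUX was the 1 tested member with a positive change at 1 h, in either genotype.

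ELF4, a small protein that joins the complex through ELF3, was near the limit of detection at 1 h, at an estimated 3 to 14 fragments per library. It measured 0.442, 0.558 and 1.13 TPM in ino80 at 27 °C against 1.22, 1.04 and 2.15 TPM in ino80 at 21 °C, and the groups overlapped. In Col it measured 1.49, 0.716 and 0.355 TPM at 27 °C against 1.86, 1.58 and 1.78 TPM at 21 °C, which lay apart. The change in ino80 was -0.53 ± 0.22 (limma adjusted p = 0.079), and it passed without Col at 27 °C replicate 1 (-0.53, adjusted p = 0.0466) and without ino80 at 27 °C replicate 3 (-0.69, adjusted p = 0.0374). The change in Col was -0.61 ± 0.22 (limma adjusted p = 0.041). That call was lost without Col at 21 °C replicate 1 (-0.58, adjusted p = 0.0975), replicate 2 (-0.65, adjusted p = 0.0592) or replicate 3 (-0.60, adjusted p = 0.0933), and without Col at 27 °C replicate 2 (-0.58, adjusted p = 0.106) or replicate 3 (-0.41, adjusted p = 0.194). It was lost too with no filter (adjusted p = 0.0564), quantile normalization (0.0531) and the replicate block (0.0525). With pseudocounts of 0.1 and 5 the ELF4 change was -0.98 and -0.18 in ino80 and -1.13 and -0.21 in Col.

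The 4 untested members were thinly covered at 1 h. COR27 measured 0.300, 0.243 and 0.327 TPM in ino80 at 27 °C, 0.461, 0.806 and 0.374 TPM in ino80 at 21 °C, 0.0667, 0.149 and 0 TPM in Col at 27 °C and 0.232, 0.460 and 0.344 TPM in Col at 21 °C. Those values stood for an estimated 12, 29, 4 and 15 fragments over the 3 libraries of each group, in the same order. In the fit with no filter COR27 fell in Col (-0.33 ± 0.10, limma adjusted p = 0.03), while its change in ino80 was -0.25 ± 0.10 (limma adjusted p = 0.091). None of the other 3 passed in that fit (limma adjusted p from 0.072 to 0.84). FKF1 had log2 fold changes of -0.41 ± 0.15 in ino80 and -0.34 ± 0.15 in Col, BOA of 0.04 ± 0.10 in ino80 and 0.09 ± 0.10 in Col, and COR28 of -0.09 ± 0.07 in ino80 and -0.16 ± 0.07 in Col. Each library held an estimated 12 to 39 fragments of BOA, 3 to 22 of FKF1, 1 to 6 of COR28 and 0 to 15 of COR27.

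After 12 h at 27 °C, 9 of the 10 genes were higher than at 21 °C in both genotypes, with LUX, COR27 and BOA in front on the log2(TPM + 1) scale. By the ratio of mean TPM, GI, with a mean under 1 TPM at 21 °C, came after LUX and before COR27 and BOA. In ino80 9 of 10 genes rose and 0 fell, and in Col 10 of 10 rose. Over all 19578 genes tested, 57.4% were called in ino80, 38.1% higher and 19.3% lower, and 58.6% in Col, 36.8% higher and 21.8% lower. The median change of the members was 0.86 in ino80 and 0.85 in Col, beside 0.15 and 0.13 for all genes. Rescaling by the median of ratios or quantile normalization lowered the median of all genes by 0.15 in ino80 and 0.12 in Col. Of all called genes 66.3% in ino80 and 62.8% in Col were higher in warmth, against 48.9% and 49.8% with the median of ratios and 49.9% and 49.8% with quantile normalization. The same 9 genes passed in ino80 under both scalings, and in Col all 10 passed with the median of ratios and 9 with quantile normalization. The summed level of the 4 green tissue genes was lower at 27 °C in both genotypes, as given above, and its part in these changes was not tested.

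**Figure D3:**
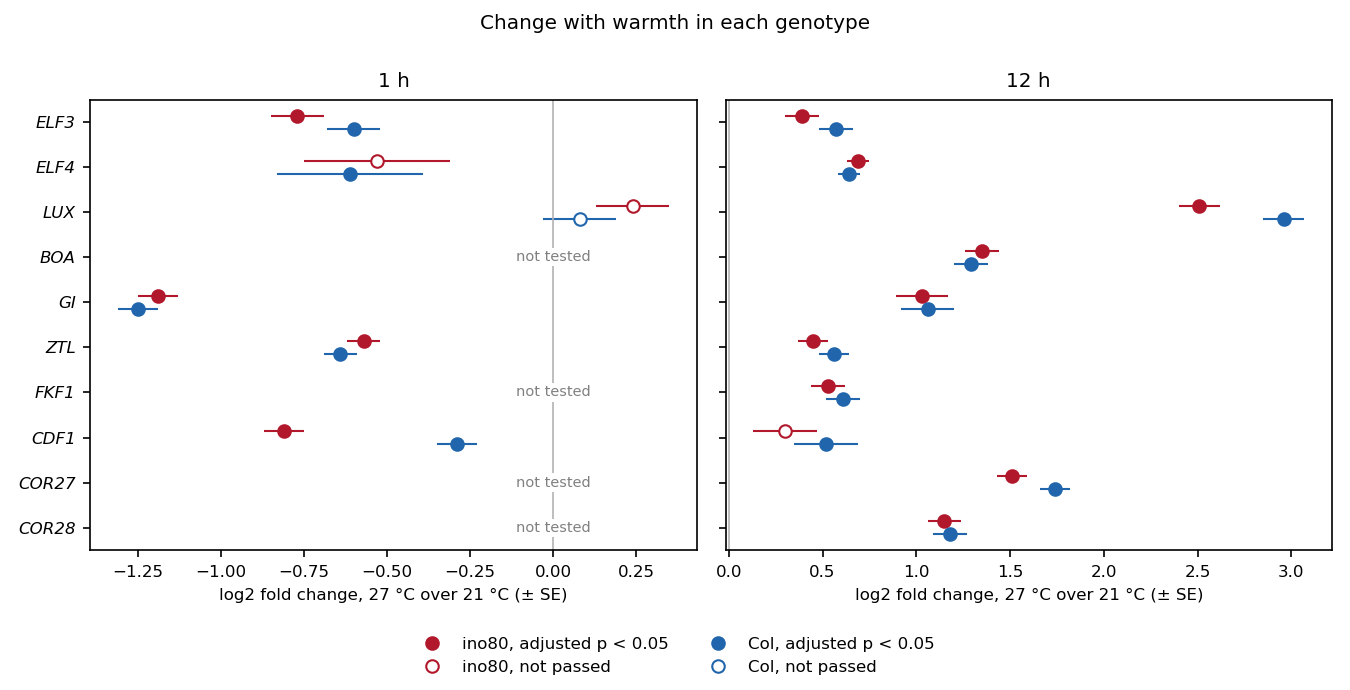
Change with warmth in each genotype at 1 h and at 12 h. The x axes are log2 fold changes of log2(TPM + 1), 27 °C over 21 °C, with bars of ± SE from limma, and differ in range between the panels. Filled points passed an adjusted p of 0.05 and open ones did not. The tested genes other than LUX lie left of 0 at 1 h, and all 10 lie right of 0 at 12 h.

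LUX had the greatest rise. It measured 43.6, 37.4 and 40.3 TPM in ino80 at 27 °C, against 5.80, 6.13 and 6.92 TPM in ino80 at 21 °C. In Col it measured 48.7, 50.9 and 59.7 TPM at 27 °C, against 6.27, 5.04 and 6.61 TPM at 21 °C. Both warm groups lay far above both cool groups, which overlapped, and the warm ino80 libraries lay under the warm Col libraries. The change was 2.51 ± 0.11 in ino80 (limma adjusted p = 4.2e-10) and 2.96 ± 0.11 in Col (limma adjusted p = 1e-10), and the means of TPM differed 6.43-fold in ino80 and 8.89-fold in Col. LUX overlaps the gene AT3G46650 on the opposite strand by 1507 bases and the use of strand is not given in the sources used here. That neighbour was listed at 0.0484 to 1.09 TPM in the 24 libraries.

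BOA, the relative of LUX, measured 32.7, 32.1 and 34.5 TPM in ino80 at 27 °C, against 11.1, 12.3 and 13.7 TPM in ino80 at 21 °C. In Col it measured 32.7, 30.2 and 36.5 TPM at 27 °C, against 13.02, 14.2 and 11.8 TPM at 21 °C. Warm and cool libraries lay apart, and the genotypes overlapped at both temperatures. BOA rose by 1.35 ± 0.09 in ino80 (limma adjusted p = 2.4e-08) and by 1.29 ± 0.09 in Col (limma adjusted p = 3.4e-08). Its annotated gene overlaps AT5G59580 on the opposite strand by 1896 bases, so the missing strand information bears on BOA too. No level of that neighbour is given here, unlike that of the neighbour of LUX.

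ELF4 and ELF3 rose less. ELF4 measured 163, 172 and 162 TPM in ino80 at 27 °C against 102, 108 and 95.9 TPM in ino80 at 21 °C, a change of 0.69 ± 0.06 (limma adjusted p = 2.4e-07). In Col it measured 106, 115 and 101 TPM at 27 °C against 67.0, 69.1 and 69.5 TPM at 21 °C, a change of 0.64 ± 0.06 (limma adjusted p = 4.7e-07). Warm libraries lay above cool ones within each genotype, and the cool ino80 libraries overlapped the warm Col libraries. ELF3 measured 89.9, 70.8 and 82.1 TPM in ino80 at 27 °C against 63.0, 61.0 and 60.2 TPM in ino80 at 21 °C, a change of 0.39 ± 0.09 (limma adjusted p = 0.0024). In Col it measured 84.9, 102 and 106 TPM at 27 °C against 64.6, 60.9 and 69.8 TPM at 21 °C, a change of 0.57 ± 0.09 (limma adjusted p = 9.3e-05). Warm and cool libraries of ELF3 lay apart in both genotypes.

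The cold-regulated repressors COR27 and COR28 both rose. COR27 measured 136, 133 and 139.9 TPM in ino80 at 27 °C, against 43.9, 49.6 and 48.2 TPM in ino80 at 21 °C. In Col it measured 105, 96.4 and 127 TPM at 27 °C, against 32.0, 30.6 and 33.0 TPM at 21 °C. The 4 groups did not overlap. COR27 rose by 1.51 ± 0.08 in ino80 (limma adjusted p = 3.2e-09) and by 1.74 ± 0.08 in Col (limma adjusted p = 7.5e-10). COR28 measured 18.4, 18.5 and 19.1 TPM in ino80 at 27 °C against 8.34, 7.72 and 7.59 TPM in ino80 at 21 °C, a change of 1.15 ± 0.09 (limma adjusted p = 1.2e-07). Its levels in Col were 17.4, 19.3 and 22.4 TPM at 27 °C against 8.41, 7.77 and 8.21 TPM at 21 °C, a change of 1.18 ± 0.09 (limma adjusted p = 8e-08). Its warm libraries lay above its cool ones in each genotype, and those of the genotypes overlapped.

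GI rose at 12 h from a base near the floor of detection, at an estimated 9 to 70 fragments per library. It measured 1.86, 1.93 and 1.71 TPM in ino80 at 27 °C against 0.382, 0.469 and 0.326 TPM in ino80 at 21 °C. In Col it measured 1.79, 1.83 and 1.80 TPM at 27 °C against 0.232, 0.430 and 0.390 TPM at 21 °C. Warm and cool libraries lay apart in both genotypes. The change was 1.03 ± 0.14 in ino80 (limma adjusted p = 2.8e-05) and 1.06 ± 0.14 in Col (limma adjusted p = 1.9e-05), and the means of TPM differed 4.67-fold in ino80 and 5.15-fold in Col. With pseudocounts of 0.1 and 5 the GI change was 1.98 and 0.34 in ino80 and 2.11 and 0.35 in Col, called each time. GI was thus lower at 27 °C at 1 h and higher at 27 °C at 12 h in ino80 and in Col.

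The F-box genes rose to a lesser degree. ZTL measured 57.7, 51.3 and 57.0 TPM in ino80 at 27 °C against 39.9, 39.2 and 41.1 TPM in ino80 at 21 °C, a change of 0.45 ± 0.08 (limma adjusted p = 0.00016). In Col it measured 43.6, 49.9 and 54.7 TPM at 27 °C against 34.0, 33.0 and 32.4 TPM at 21 °C, a change of 0.56 ± 0.08 (limma adjusted p = 2.4e-05). FKF1 measured 12.8, 11.8 and 12.1 TPM in ino80 at 27 °C against 8.42, 7.59 and 8.48 TPM in ino80 at 21 °C, a change of 0.53 ± 0.09 (limma adjusted p = 0.00012). Col had 15.1, 13.5 and 15.5 TPM of FKF1 at 27 °C against 9.36, 8.81 and 9.58 TPM at 21 °C, a change of 0.61 ± 0.09 (limma adjusted p = 3.1e-05). No warm library of ZTL or FKF1 overlapped a cool one of the same genotype.

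CDF1 was low throughout the 12 h table, at an estimated 5 to 19 fragments per library. It measured 1.19, 1.28 and 1.07 TPM in ino80 at 27 °C against 0.707, 0.841 and 0.747 TPM in ino80 at 21 °C, a change of 0.30 ± 0.17 that did not pass (limma adjusted p = 0.13). In Col it measured 1.51, 1.57 and 1.47 TPM at 27 °C against 0.374, 0.951 and 0.999 TPM at 21 °C, a change of 0.52 ± 0.17 (limma adjusted p = 0.015). The call in Col was lost without Col at 21 °C replicate 1 (0.35, adjusted p = 0.0845) and with quantile normalization (0.41, adjusted p = 0.0532), and with pseudocounts of 0.1 and 5 the change of CDF1 in Col was 0.98 and 0.18. The interaction of -0.22, with a 95% interval of -0.72 to 0.29, did not pass.

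Between the genotypes at 12 h, ELF4 and COR27 were higher in ino80 at both temperatures. At 27 °C 2 of the 10 genes were higher in ino80, ELF4 and COR27, and 2 were lower, LUX and ELF3. At 21 °C ELF4, COR27 and ZTL were higher and 0 were lower. Over all genes 30.2% were called at 27 °C, 18.7% higher and 11.5% lower, and 28.8% at 21 °C, 16.7% higher and 12.1% lower. The medians of the members were -0.03 at 27 °C and 0.03 at 21 °C, beside 0.05 and 0.03 for all genes. Of all called genes at 27 °C, 61.9% were higher in ino80, against 45.5% with the median of ratios and 47.7% with quantile normalization. Under those scalings the member calls at 27 °C were 2 higher and 3 lower, FKF1 being the addition. Without ino80 at 27 °C replicate 2 the calls at 27 °C were 2 higher, ELF4 and COR27, and 0 lower.

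ELF4 showed the greatest difference of the members at 27 °C, and at 21 °C it and COR27 differed by nearly the same amount. Its difference was 0.62 ± 0.06 at 27 °C (ino80 over Col, limma adjusted p = 4.3e-06), with means of 166 TPM in ino80 and 108 TPM in Col. At 21 °C the difference was 0.57 ± 0.06 (limma adjusted p = 1.1e-05), with means of 102 TPM in ino80 and 68.5 TPM in Col. All 3 ino80 libraries lay above all 3 Col libraries at each temperature, and both calls held under all 21 alternatives. The interaction was 0.05 with a 95% interval of -0.13 to 0.24. ELF4 did not differ detectably at 1 h, where the difference was -0.09 ± 0.22 at 27 °C and -0.18 ± 0.22 at 21 °C at a depth of few fragments.

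COR27 differed by 0.32 ± 0.08 at 27 °C (limma adjusted p = 0.0095), with means of 136 TPM in ino80 and 109 TPM in Col. At 21 °C it differed by 0.55 ± 0.08 (limma adjusted p = 0.00024), with means of 47.2 TPM in ino80 and 31.9 TPM in Col. Both held under all 21 alternatives, with a largest adjusted p of 0.047 at 27 °C and 0.0019 at 21 °C. Its paralogue COR28 differed by -0.07 at 27 °C, with a 95% interval of -0.27 to 0.13, and by -0.04 at 21 °C, with an interval of -0.24 to 0.16, and neither passed.

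LUX was lower in ino80 at 27 °C by a difference of -0.38 ± 0.11 (limma adjusted p = 0.014), with means of 40.4 TPM in ino80 and 53.1 TPM in Col. This call was lost without Col at 27 °C replicate 3 (-0.30, adjusted p = 0.07) and without ino80 at 27 °C replicate 2 (-0.33, adjusted p = 0.0571). At 21 °C the difference was 0.07 with a 95% interval of -0.16 to 0.30. The interaction was -0.45, with a 95% interval of -0.78 to -0.13, an unadjusted p of 0.01 and a limma adjusted p of 0.23, and it passed under 0 of 20 alternatives (adjusted p 0.12 to 0.4). LUX was the 1 member with an unadjusted interaction p under 0.05 at 12 h, where 0 of 10 passed the adjusted threshold in limma and under its alternatives, beside 0.751% of all genes, 0.327% higher and 0.424% lower.

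ELF3 was lower in ino80 at 27 °C by a difference of -0.27 ± 0.09 (limma adjusted p = 0.041), though its libraries overlapped, and its difference at 21 °C was -0.08 ± 0.09 (limma adjusted p = 0.55). The call at 27 °C was lost without ino80 at 27 °C replicate 2 (-0.18, adjusted p = 0.17) or replicate 3 (-0.28, adjusted p = 0.0746), and without Col at 27 °C replicate 2 (-0.23, adjusted p = 0.118) or replicate 3 (-0.21, adjusted p = 0.145). It was lost as well without ino80 at 21 °C replicate 2 (adjusted p = 0.0518) or Col at 21 °C replicate 1 (adjusted p = 0.0532), with no filter (0.0551) and in a fit of the 2 groups alone (0.0922). FKF1 was at -0.24 ± 0.09 at 27 °C (limma adjusted p = 0.051) with libraries apart, and passed under 6 of 21 alternatives. Those were a pseudocount of 5 (adjusted p = 0.0406), a mean of at least 5 TPM (0.0459), the median of ratios (0.0133), quantile normalization (0.0156), the replicate block (0.0492) and leaving out Col at 27 °C replicate 2 (0.0349).

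ZTL was higher in ino80 at 21 °C by 0.27 ± 0.08 (limma adjusted p = 0.019), with means of 40.1 TPM in ino80 and 33.2 TPM in Col. That call was lost without Col at 21 °C replicate 2 (0.26, adjusted p = 0.0516) or replicate 3 (0.25, adjusted p = 0.0623), or ino80 at 21 °C replicate 3 (0.25, adjusted p = 0.0662). At 27 °C its difference of 0.17 ± 0.08 did not pass (limma adjusted p = 0.13), and did without Col at 27 °C replicate 3 (0.24, adjusted p = 0.032). GI differed by 0.01 at 27 °C, with a 95% interval of -0.30 to 0.32, and BOA by 0.00, with an interval of -0.20 to 0.20. Neither these nor CDF1 passed at either temperature.

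Markers of other tissues differed between the genotypes as well. The summed level of 4 root genes (PYK10, PIP2-2, IRT1 and COBL9) was 4093 to 4462 TPM in ino80 at 27 °C against 2114 to 2992 TPM in Col at 27 °C, and 3708 to 4143 TPM in ino80 at 21 °C against 2059 to 2313 TPM in Col at 21 °C, all at 12 h. At 1 h the root sum was 2959 to 3086 TPM in ino80 at 27 °C against 2327 to 2509 TPM in Col at 27 °C, and 2622 to 2697 TPM in ino80 at 21 °C against 2133 to 2290.0 TPM in Col at 21 °C. Of these 4 genes, 1 was higher and 0 were lower in ino80 at 27 °C and 2 were higher and 0 lower at 21 °C, at 12 h. At 1 h 2 were higher and 1 was lower in ino80 at 27 °C, and 2 were higher and 0 lower at 21 °C. The summed level of 3 seed genes (the cruciferins CRU3 and CRA1 and the oleosin OLEO1) was 22.1 to 39.9 TPM in ino80 at 27 °C against 4.31 to 19.1 TPM in Col at 27 °C, and 15.3 to 24.6 TPM in ino80 at 21 °C against 1.43 to 6.74 TPM in Col at 21 °C, at 12 h. At 1 h the seed sum was 73.4 to 77.0 TPM in ino80 at 27 °C against 8.22 to 15.5 TPM in Col at 27 °C, and 58.7 to 66.5 TPM in ino80 at 21 °C against 8.16 to 13.8 TPM in Col at 21 °C. All 3 seed genes were higher in ino80 in each genotype comparison other than that at 27 °C and 12 h, where 2 were. The floral organ genes AP3, PI and AG summed to 1.25 to 3.28 TPM in ino80 and 0.311 to 1.31 TPM in Col over both times. Of these 3 genes only PI could be tested, and it was higher in ino80 in each genotype comparison. In ino80 1 of the 3 was at 0 TPM in all libraries at 21 °C at both times and at 27 °C at 12 h. No gene of the 3 was so in a Col group, so the sum does not speak for all 3. Genes of the chloroplast and mitochondrial genomes took 0.219 to 0.271% of TPM in ino80 at 27 °C, 0.154 to 0.201% in ino80 at 21 °C, 0.0866 to 0.109% in Col at 27 °C and 0.113 to 0.164% in Col at 21 °C at 1 h. At 12 h the organelle share was 0.155 to 0.17% in ino80 at 27 °C, 0.128 to 0.139% in ino80 at 21 °C, 0.143 to 0.159% in Col at 27 °C and 0.127 to 0.143% in Col at 21 °C, so that the genotypes overlapped at each temperature. With nuclear genes alone rescaled to the same total, no call of a member changed at either time. The part of root, seed or floral RNA in the genotype differences of the members was not tested.

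**Figure D4:**
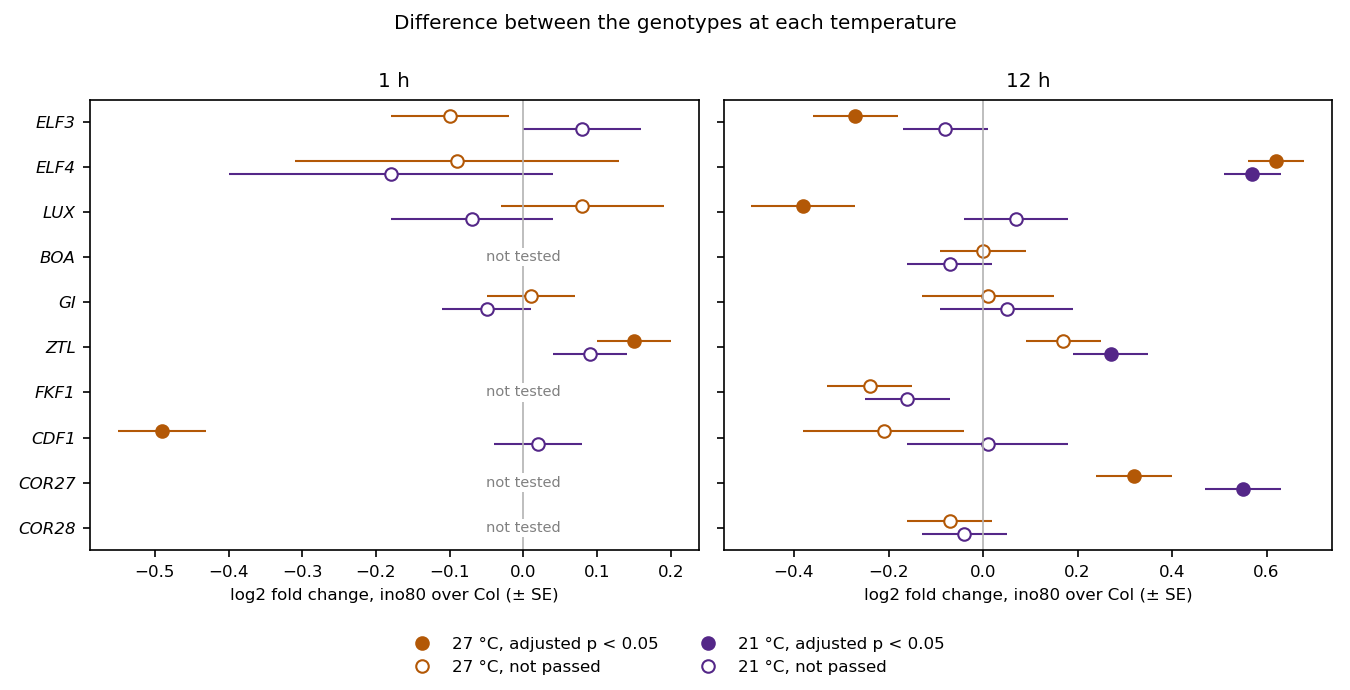
Difference between the genotypes at 1 h and at 12 h. The x axes are log2 fold changes of log2(TPM + 1), ino80 over Col, with bars of ± SE from limma, and differ in range between the panels. Filled points passed an adjusted p of 0.05 and open ones did not. CDF1 stands apart to the left at 27 °C and 1 h, and ELF4 and COR27 lie right of 0 at both temperatures at 12 h.

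At 1 h and 27 °C CDF1 was lower in ino80 and ZTL higher, which is 2 of 6 tested, beside 37.4% of all genes, 17.1% higher and 20.4% lower. CDF1 had means of 35.9 TPM in ino80 and 50.8 TPM in Col, a difference of -0.49 ± 0.06 (limma adjusted p = 2.7e-05) that held under all 21 alternatives. ZTL had means of 42.2 TPM in ino80 and 37.8 TPM in Col, a difference of 0.15 ± 0.05 (limma adjusted p = 0.033). The ZTL call was lost without ino80 at 27 °C replicate 1 (0.15, adjusted p = 0.0859) or replicate 2 (0.14, adjusted p = 0.0929), and without Col at 27 °C replicate 1 (0.14, adjusted p = 0.0934) or replicate 2 (0.14, adjusted p = 0.0915). At 21 °C 0 of 6 differed in limma, 0 at an unadjusted p under 0.05 and 0 under each alternative, beside 35.9% of all genes, 15.4% higher and 20.5% lower. Their differences at 21 °C ran from -0.18 to 0.09, with a median of -0.01 beside -0.03 for all genes. GI differed by 0.01 at 27 °C, with a 95% interval of -0.11 to 0.13, and by -0.05 at 21 °C, with an interval of -0.17 to 0.07. COR27 was listed at 0.243 to 0.327 TPM in ino80 at 27 °C and at 0 to 0.149 TPM in Col at 27 °C, which did not overlap, and in the fit with no filter its difference of 0.27 ± 0.10 did not pass (limma adjusted p = 0.062).

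Among 14 other clock genes, 13 of which were tested at 1 h, 1 rose and 11 fell with warmth in ino80, and 1 rose and 10 fell in Col. Their medians were -0.44 in ino80 and -0.36 in Col. Of all genes 15.2% were higher and 16.8% lower in ino80, and 15.7% higher and 18.5% lower in Col. The morning MYB gene LHY fell by 0.78 ± 0.05 on the log2 scale in ino80 and by 0.86 ± 0.05 in Col, with means of 212 TPM at 27 °C against 366 TPM at 21 °C in ino80 and 214 TPM at 27 °C against 388 TPM at 21 °C in Col. PRR5, a target of ZTL as a protein, fell by 1.39 ± 0.12 in ino80 and by 1.54 ± 0.12 in Col. The gene that rose in both was CHE, a TCP factor that represses CCA1, by 1.01 ± 0.06 in ino80 and by 0.50 ± 0.06 in Col. Some calls at 1 h were weak. The fall of TIC in Col was lost with no filter (-0.21, limma adjusted p = 0.0687), the median of ratios (-0.19, 0.0531) and quantile normalization (-0.19, 0.0829), among others. That of TOC1 was lost without ino80 at 27 °C replicate 3 in ino80 (-0.19, 0.107) and without Col at 27 °C replicate 3 in Col (-0.23, 0.067), among others. At 12 h 8 of 9 tested clock genes rose and 0 fell in ino80, and 8 rose and 0 fell in Col. Of all genes 38.1% were higher in ino80 and 36.8% in Col. The medians of the clock genes were 0.50 in ino80 and 0.44 in Col. The 8 that rose were not all the same, since PRR5 did not pass in ino80 (0.27, limma adjusted p = 0.079) and LNK2 did not pass in Col (0.27, limma adjusted p = 0.2). Some of these calls, looked up after their values were seen, were weak: LNK2 in ino80 was lost under 13 of 20 alternatives (largest adjusted p 0.18) and RVE8 in Col under 11 of 20 (largest adjusted p 0.16), the replicate block among them (0.0644 for LNK2 and 0.0587 for RVE8). The calls of RVE6 in both genotypes and of PRR5 in Col were lost with the median of ratios and with quantile normalization. They were lost too without ino80 at 21 °C replicate 2 for RVE6 in ino80 (0.29, adjusted p = 0.055), without Col at 27 °C replicate 2 for RVE6 in Col (0.30, 0.0587), and without Col at 21 °C replicate 2 (0.36, 0.0512) or Col at 27 °C replicate 3 (0.25, 0.0998) for PRR5 in Col. TOC1, the other main target of ZTL, rose by 1.35 ± 0.09 in ino80 and by 1.46 ± 0.09 in Col.

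Of the relatives of the members, 8 were tested at each time. At 1 h 1 rose and 4 fell in ino80, beside 15.2% of all genes higher and 16.8% lower. In Col 0 rose and 3 fell, beside 15.7% higher and 18.5% lower. The fall of EFL4 in Col was lost with no filter (-0.36, limma adjusted p = 0.0652), with the replicate block (-0.36, 0.0623) and without Col at 27 °C replicate 2 (-0.24, 0.212), among others. The fall of CDF4 in ino80 was lost without ino80 at 21 °C replicate 3 (-0.41, 0.107), among others. At 12 h 6 of the 8 rose and 0 fell in both genotypes, with medians of 0.97 in ino80 and 0.88 in Col. Of all genes 38.1% were higher in ino80 and 36.8% in Col at 12 h. EFL2 and EFL4, which resemble ELF4, rose by 1.43 ± 0.09 and 1.13 ± 0.08 in ino80 and by 1.37 ± 0.09 and 1.18 ± 0.08 in Col. EFL4, like ELF4, was higher in ino80 at both temperatures. It had means of 37.1 TPM in ino80 and 25.0 TPM in Col at 27 °C, a difference of 0.55 ± 0.08 (limma adjusted p = 0.00011), and of 16.3 TPM in ino80 and 10.5 TPM in Col at 21 °C, a difference of 0.59 ± 0.08 (limma adjusted p = 7e-05). CDF2, a DOF factor related to CDF1, rose by 1.63 ± 0.13 in ino80 and by 1.52 ± 0.13 in Col at 12 h and fell by 0.65 ± 0.13 in ino80 and by 0.74 ± 0.13 in Col at 1 h. Its difference between genotypes at 27 °C and 1 h was 0.45 ± 0.13 (limma adjusted p = 0.011), where that of CDF1 was -0.49 ± 0.06. Without Col at 27 °C replicate 3 that of CDF2 was 0.38 (adjusted p = 0.051). At 21 °C and 1 h CDF2 was called higher in ino80 as well, where CDF1 did not pass. That call of CDF2 was lost without Col at 21 °C replicate 1 (0.24, limma adjusted p = 0.16) or ino80 at 21 °C replicate 3 (0.32, 0.114), among others.

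Of 10 photoperiod and growth genes, 8 were tested at 12 h, and 6 rose in ino80 and 5 in Col while 0 fell. Of all genes 38.1% were higher in ino80 and 36.8% in Col. The medians of the 8 genes were 1.08 in ino80 and 1.32 in Col. PIF4, a target of the evening complex, had means of 13.8 TPM at 27 °C against 2.05 TPM at 21 °C in ino80 and 22.3 TPM at 27 °C against 2.37 TPM at 21 °C in Col. It rose by 2.27 ± 0.14 in ino80 (limma adjusted p = 9.6e-09) and by 2.79 ± 0.14 in Col (limma adjusted p = 1.2e-09). It was lower in ino80 at 27 °C, by a difference of -0.66 ± 0.14 (limma adjusted p = 0.0032), and its interaction of -0.52 ± 0.20 did not pass (limma adjusted p = 0.32). At 27 °C 1 of the 8 was higher in ino80 and 4 were lower, beside 18.7% higher and 11.5% lower of all genes.

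The genes outside the member list whose levels followed a member most closely were sought over all 24 libraries, each table centred. They were taken from 15312 genes tested in both tables with a mean of at least 5 TPM, and members among these were left out of the ranking. For GI they were CYP81D4 (Pearson's r = 0.971), KUF1 (0.965) and NRT1.5 (0.963). For LUX they were SNX1 (0.988), AT5G16880 (0.987) and ATG8B (0.986), and for ELF4 they were AT3G17800 (0.878), AT5G14730 (0.873) and AT5G18310 (0.872). COR27 was not tested at 1 h and so has no such list. The points share libraries, groups and depth, so these values describe likeness and carry no p.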

How the data were processed

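RNA of 24 libraries, 12 for each time, was analysed. The authors deposited 1 table per time of TPM per gene, a level per transcript length scaled to the same total in each library. Tools named in the submitters' processing notes, without their roles, are HTSeq 0.11.2, DESeq2 1.26.0, HISAT2 and fastp 0.20.1, with the build TAIR10, and strand use, gene lengths and the gene filter are not given in the sources used here. Libraries of a group had a Pearson's r of at least 0.993 in the 1 h table and 0.990 in the 12 h table, and none were identical.

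TPM were taken as log2(TPM + 1) for genes with at least 1 TPM in at least 3 of the 12 libraries of a table, 19190 of 23390 at 1 h and 19578 of 23282 at 12 h. limma 3.58.1 (R 4.3.3) fitted the 4 group means of a table with a trended prior, and the temperature, genotype and interaction contrasts were adjusted by Benjamini-Hochberg over all genes tested. A gene was called at an adjusted p under 0.05. The fit was tested on simulated data. Fragments were estimated from the steps between low TPM of genes of known length, so they carry the error of that estimate and cover counting only.

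The 10 genes, the other lists and the markers were chosen with earlier results of these data known. From each other list up to 3 called genes per comparison with the largest absolute moderated t could be named. Motifs were searched before 8 of the genes in TAIR10.1 (RefSeq), and those of ELF4 and COR27 are not reported here. The starts of that annotation may differ from those used by the authors. The alternatives were pseudocounts of 0.1 and 5, no filter, a mean of at least 5 TPM, median of ratios, quantile normalization, nuclear genes rescaled, the replicate number as a block, a fit of the groups compared alone, and leaving out each library.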

Additional observations from a re-analysis of the deposited data

Results flagged for a closer look

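The change with warmth at 1 h differed between ino80 and Col by the test of the difference itself for 3 of the genes followed. They were 1 of 6 tested members, 1 of 13 other clock genes and 1 of 8 relatives. Of 6 photoperiod and growth genes 0 were called, and of all genes 1.88%. For CDF1 the interaction was -0.51 on the log2 scale (limma adjusted p = 0.0085), with changes of -0.81 in ino80 and -0.29 in Col. For CHE it was 0.51 (limma adjusted p = 0.008), with means of 50.6 TPM at 27 °C and 24.6 TPM at 21 °C in ino80 and of 31.9 TPM at 27 °C and 22.2 TPM at 21 °C in Col, and it was called under all 20 alternatives. For CDF3, a DOF factor related to CDF1, it was -0.28 (limma adjusted p = 0.025), with changes of -0.33 in ino80 and -0.05 in Col. The groups behind it were not those of CDF1. At 1 h CDF3 was higher in ino80 at 21 °C, while CDF1 was lower in ino80 at 27 °C and did not differ at 21 °C. At 27 °C the difference of CDF3 did not pass, but it did under some alternatives, such as the median of ratios (0.14, limma adjusted p = 0.0205). The CDF3 call was lost without ino80 at 27 °C replicate 1 (-0.30, adjusted p = 0.0505), replicate 2 (-0.28, 0.0641) or replicate 3 (-0.27, 0.063), without ino80 at 21 °C replicate 1 (-0.29, 0.0562), without Col at 27 °C replicate 1 (-0.28, 0.0584) or replicate 2 (-0.26, 0.0796) and without Col at 21 °C replicate 3 (-0.29, 0.0554).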

How the results depend on the processing

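Of 80 tested changes of the 10 genes, 38 were called and 9 changed their call under at least 1 alternative, as given beside each. No called change of a member turned its direction, and 12 of the 42 changes that were not called had the other sign under at least 1 alternative. Leaving out 1 library gave 185 to 439 called interactions over all genes at 1 h (361 with all libraries) and 54 to 127 at 12 h (147 with all libraries). It gave 1 to 2 members for the genotypes at 27 °C and 1 h (2 with all libraries) and 2 to 4 at 27 °C and 12 h (4 with all libraries). With the replicate number as a block, 93 interactions were called at 12 h. Libraries of 1 number in different groups had deviations correlated at -0.052 to 0.120 at 1 h (median 0.017) and -0.289 to 0.203 at 12 h (median -0.032). For libraries of other numbers the medians were -0.009 at 1 h and 0.017 at 12 h. At 1 h 9 of 12 libraries correlated best with their own number, and at 12 h 1 of 12 did. Pairing by number is therefore not excluded at 1 h. The main fit took no pairing at either time, and the block was an alternative. Of 270 tested changes of the other listed genes, 59 changed their call and 0 turned their direction once called. At 1 h the depth limits ELF4, BOA, FKF1, COR27 and COR28, and at 12 h GI and CDF1, whose fold changes move with the pseudocount.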
